A study of Mus musculus with 44 samples.

Results

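The hypoxia and glycolysis genes described here are Bnip3, Egln1, Ak4, Pgk1, Ldha, Slc2a1, Vegfa and Hk2. They were selected by name: every probe set that the platform annotation assigns to one of these symbols was taken, which gave 10 probe sets for the 8 genes, of 12422 probe sets and 8251 genes measured in the series. Ak4 and Hk2 have 2 probe sets each, and the other 6 genes have 1. Expression was measured on 44 single-channel Affymetrix MG-U74Av2 arrays in CGR8.8, a clone of the mouse embryonic stem (ES) cell line CGR8, in a search for genes that respond to the homeodomain transcription factor Hex. Either Hex or a fusion named HexERTVP2 had been targeted to Rosa26, a locus active in most mouse cells. The name of the fusion points to an oestrogen receptor part bound by 4-hydroxytamoxifen (4-OHT) and an activation domain of viral origin.

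The labels placed 40 arrays in 11 groups. Wild-type cells, unrecombined Hex cells and recombined Hex cells had 4 arrays each. HexERTVP2 clone 1 had 5 arrays of unrecombined cells without 4-OHT, 3 of unrecombined cells with 4-OHT and 4 each of recombined cells without and with it. HexERTVP2 clone 2 had 3 arrays in each of the same 4 states. The Hex line is not named as a clone or a pool, and whether recombination switches the insert on is not stated. The labels of the other 4 arrays contradict themselves, so those arrays entered no comparison. The labels do not tell whether a group's arrays are separate cultures, and the p-values therefore rest on array-to-array spread that may be technical.

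In low oxygen the transcription factor HIF-1 is stabilised and raises genes that shift cells from respiration towards glycolysis. Egln1 encodes the prolyl hydroxylase that marks HIF for degradation when oxygen is present, and it is itself a HIF target. Slc2a1 brings glucose into the cell, Hk2 and Pgk1 act early and late in glycolysis, Ldha turns pyruvate into lactate, Bnip3 drives the removal of mitochondria, Ak4 is a mitochondrial adenylate kinase and Vegfa is a secreted growth factor for blood vessels. Mouse ES cells use glycolysis heavily also when oxygen is plentiful.

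The hypoxia response element, the site that HIF binds, has the core RCGTG, where R is A or G. Only the form ACGTG, called the core below, was searched. It lies on either strand as ACGTG or CACGT and overlaps the E-box CACGTG. This form was searched on both strands in RefSeq promoter windows of 300 bases (GRCm38.p6), 250 before and 50 after a gene's start. Each of the 8 genes had it in at least 1 window, against 21.8% of all 27025 genes in the table. By windows it was 8 of 13, against 19.6% of all 32851 windows and 26.5% of those with a GC content of 60% or more. The median GC content was 66.7% in the members' windows and 52.7% in all. Stretches of 30 bases around 1 site of the 5 genes that the results below turn on are shown 5′ to 3′ on the gene's own strand, with the core or E-box in capitals.
Ak4, chr4:101419477-101419506, + strand: tcccactctgccCACGTGcggggaccggca
Bnip3, chr7:138909597-138909626, − strand: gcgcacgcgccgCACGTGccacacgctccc
Egln1, chr8:124949306-124949335, − strand: ggggccgtggtgtACGTGcagcgcgcgcgg
Hk2, chr6:82774490-82774519, − strand: caatgagcacatcCACGTcactgtccgggg
Pgk1, chrX:106186937-106186966, + strand: cgcgtcgtgcaggACGTGacaaatggaagt
The sites of Ak4 and Bnip3 are E-boxes as well, as are 2 of the 3 sites of Ldha, and 7.15% of all windows hold an E-box. The Bnip3 site lies 108 bases before the start of its single window. The Ak4 site lies 214 bases before the start in 1 of 4 windows, and the other 3 windows hold none. The Bnip3 promoter is printed up to the start, to show the sequence around its site. Sites of the form GCGTG, which it also holds, were not searched and are not marked.
Bnip3, chr7:138909507-138909756, − strand: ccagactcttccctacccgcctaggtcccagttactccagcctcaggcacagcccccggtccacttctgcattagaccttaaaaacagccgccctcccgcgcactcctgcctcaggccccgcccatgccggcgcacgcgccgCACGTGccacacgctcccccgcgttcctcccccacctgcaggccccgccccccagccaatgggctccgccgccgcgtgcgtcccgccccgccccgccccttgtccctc

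Some facts of the arrays touch every value below. Array 2 of unrecombined Hex lay outside the range of the other 3 arrays of its group in all 10 member probe sets, below in 7 and above in 3, and its mean correlation with the other arrays was 0.869, against 0.978 to 0.990 for the rest. Because the groups share 1 estimate of the spread, it entered every test, and values without it (39 arrays) stand beside those with it (40 arrays). The log2 ratio of the 3′ to the 5′ β-actin control probe set, a measure of RNA and labelling quality, ranged from 0.559 to 2.34. Of 12 ES cell markers 11 lay above the median of the arrays (Esrrb did not), against 3 of 8 for endoderm and 3 of 8 for fibroblasts; the mean levels of the 3 lists by group were 9.48 to 9.88, 6.67 to 6.91 and 6.09 to 6.26 on the log2 scale. The ES cell markers averaged 9.84 to 9.90 on the wild-type arrays. Every array of every unrecombined group lay below that range, at 8.75 to 9.76 in Hex, 9.56 to 9.65 in clone 2 and 9.64 to 9.76 in clone 1 (the clones without 4-OHT). Recombined groups also held arrays below it, at 9.52 to 9.93 in Hex, 9.78 to 9.92 in clone 2 and 9.67 to 9.98 in clone 1. The endoderm markers averaged 6.81 to 6.99 in unrecombined clone 2 without 4-OHT, above every wild-type array (6.65 to 6.71). The part of these shifts in the lower Ak4, Pfkp and Ldhb of the unrecombined lines described below was not tested. Nor was their part tested in the lower Bnip3 of the unrecombined HexERTVP2 clones. Endoderm markers Afp, Foxa2, Gata6, Sox7 and Ttr and fibroblast markers Col3a1, Dcn, Lum, Pdgfrb and Postn lay below the median. The Hhex probe set stayed between 5.89 and 6.29 in the group means, and whether it detects the inserted gene is not known. In bulk RNA, less RNA per cell and fewer cells that express a gene cannot be told apart.

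Among the members, Ak4 and Bnip3 varied between the groups with all arrays in the fit. Over all 11 groups, 3 of 10 member probe sets varied beyond the spread within groups (limma's F test, Benjamini-Hochberg adjustment over all probe sets), against 5.17% of all probe sets. They were Ak4 99959_at (adjusted p = 1.87e-09), Bnip3 (7.52e-08) and Ak4 99521_at (0.0349). On 39 arrays Hk2 94375_at (adjusted p = 1.07e-05), Egln1 (0.00444) and Pgk1 (0.00915) passed too, which made 6 of 10 against 12.9%. Once the fit on 40 arrays held the β-actin ratio, Slc2a1 (adjusted p = 0.00719) and Egln1 (0.0469) passed as well, and Slc2a1 did not on 39 arrays without that term (0.0535). Group means spanned 1.42 log2 units in both Ak4 99959_at and Bnip3, with pooled SDs within groups of 0.18 and 0.20. Those of Slc2a1 spanned 1.03, with a pooled SD of 0.47.

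Ak4 was low in 2 unrecombined lines and higher in the recombined cells derived from them. On probe set 99959_at wild-type arrays read 8.66, 8.41, 8.23 and 8.31 (log2 intensity). Unrecombined Hex arrays read 7.68, 6.88, 7.59 and 7.63, and recombined Hex arrays read 8.53, 8.33, 8.01 and 8.19. All 4 unrecombined Hex arrays therefore lay below all wild-type and all recombined Hex arrays, with array 2 the lowest. Ak4 fell in unrecombined Hex cells against wild type by 0.96 on the log2 scale (SE 0.13, 1.94-fold lower, adjusted p = 6.29e-06), the 1 member probe set of 10 called there, with 4.82% of all probe sets called (3.63% on 39 arrays). Recombined Hex cells stood 0.82 above unrecombined ones (SE 0.13, 1.77-fold, adjusted p = 7.49e-05). Without array 2 these differences were −0.77 (adjusted p = 6.18e-06) and 0.63 (9.91e-05). Both calls ended when only the groups compared were fitted (adjusted p = 0.174 and 0.498). Recombined Hex and wild type differed by −0.14 (95% interval −0.39 to 0.12, adjusted p = 0.728).

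The HexERTVP2 clones differed in Ak4 before recombination. Unrecombined clone 1 arrays without 4-OHT read 8.21, 7.99, 8.09, 8.20 and 7.91, and those of clone 2 read 7.11, 7.26 and 6.84. No clone 2 array reached the lowest clone 1 array. After recombination clone 1 read 8.60, 8.45, 8.47 and 8.45, and clone 2 read 8.16, 8.22 and 8.07. Every recombined clone 2 array still lay below the lowest wild-type array (8.23), and the difference of −0.25 without 4-OHT did not pass (SE 0.14, adjusted p = 0.853 on 39 arrays). Averaged over the clones, Ak4 rose with recombination by 0.75 without 4-OHT (SE 0.09, 1.68-fold, adjusted p = 1.87e-05), the only 1 of 10 member probe sets called, against 0.467% of all (3.38% on 39 arrays). With 4-OHT it rose by 0.52 (SE 0.10, 1.43-fold, adjusted p = 0.00986), again 1 of 10, against 0.185% (0.523% on 39 arrays). In clone 2 alone the rise without 4-OHT was 1.08 (SE 0.15, adjusted p = 5.45e-05), with 0.322% of all probe sets called. In clone 1 alone the difference was 0.41 (SE 0.12, adjusted p = 0.169, and 0.0110 on 39 arrays), with no overlap between its groups and 0.547% of all probe sets called (1.32% on 39 arrays). The clones differed in this response by 0.67 (SE 0.19), which did not pass on 40 arrays (adjusted p = 0.186, 0.29% of all called) and passed on 39 (0.00925, 1.35%).

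Across the 4 states together, clone 2 lay 0.61 below clone 1 in Ak4 99959_at (SE 0.07, adjusted p = 3.05e-07), 1 of 10 member probe sets called with 1.22% of all called (2 of 10 and 3.25% on 39 arrays). The gap was −1.01 in unrecombined cells without 4-OHT (adjusted p = 1.09e-05, 2.01% of all called) and −0.34 in recombined ones, which did not pass (adjusted p = 0.264 on 39 arrays). Against wild type, unrecombined clone 2 stood at −1.33 (SE 0.14, 2.52-fold lower, adjusted p = 8.40e-08). For unrecombined clone 1 the difference was −0.32 (SE 0.12, adjusted p = 0.662, and 0.0795 on 39 arrays). The order of the group means ran from recombined clone 1 (8.49, and 8.44 with 4-OHT) through wild type (8.40), recombined Hex (8.27), recombined clone 2 (8.15), unrecombined clone 1 (8.08, and 8.004 with 4-OHT) to recombined clone 2 with 4-OHT (7.97), with neighbours overlapping. It then broke to unrecombined Hex (7.45), which overlapped unrecombined clone 2 with 4-OHT (7.37), and unrecombined clone 2 without 4-OHT was lowest (7.07).

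The second Ak4 probe set, 99521_at, had smaller differences between the groups. Its wild-type arrays read 7.28, 7.13, 7.29 and 7.21, its unrecombined Hex arrays 6.88, 6.42, 7.02 and 6.62 and its recombined Hex arrays 7.09, 7.54, 6.70 and 7.36. Here the 2 Hex groups overlapped, and their difference of 0.44 did not pass (SE 0.16, adjusted p = 0.134). The differences were 0.33 for HexERTVP2 recombination without 4-OHT (SE 0.12, adjusted p = 0.260) and −0.30 between the clones (SE 0.09, adjusted p = 0.0857). The latter passed on 39 arrays (0.0332) and without array 1 of recombined clone 1 with 4-OHT (0.0380). The group means of the 2 Ak4 probe sets had a correlation of 0.95 over 11 groups. Unlike 99959_at, this probe set moved with the β-actin ratio within groups, by −0.37 log2 units per unit of the ratio (SE 0.06, adjusted p = 7.16e-06), and with that ratio in the model its HexERTVP2 recombination difference was 0.49 (adjusted p = 0.00120).

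**Figure D1:**
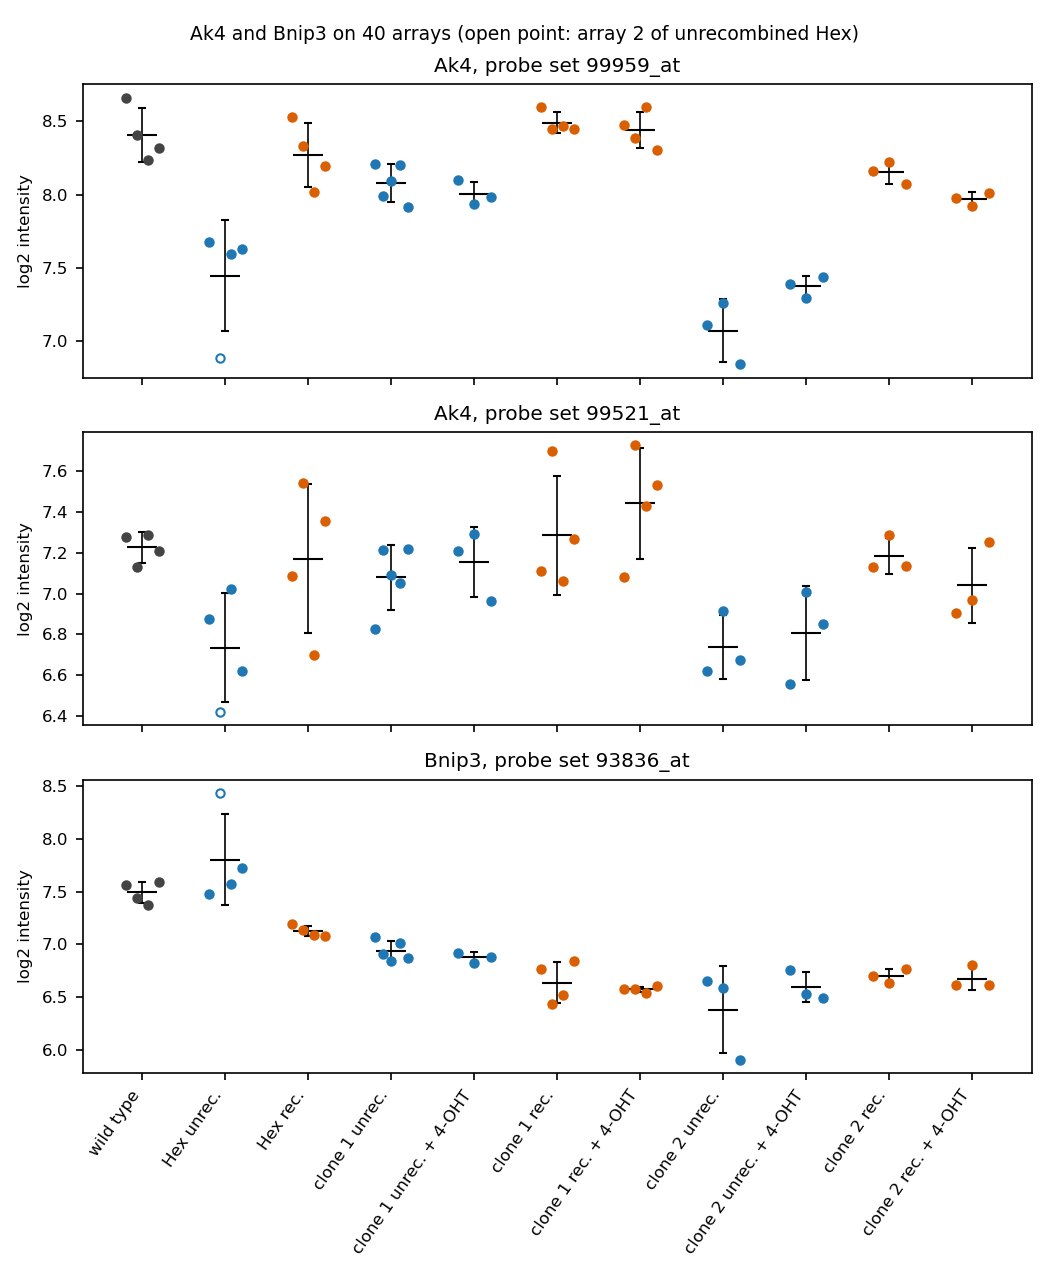
Log2 intensity of the 2 Ak4 probe sets and of Bnip3 (vertical axes) on each of 40 arrays in 11 groups (horizontal axis); bars give the mean ± SD, grey marks wild type, blue unrecombined and orange recombined cells, and the open point is array 2 of unrecombined Hex. Ak4 99959_at is low in unrecombined Hex and unrecombined clone 2, and Bnip3 is highest in wild type (7.38 to 7.59) and unrecombined Hex (7.48 to 8.44).

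Bnip3 had its highest means in wild-type and unrecombined Hex cells (7.49 and 7.80) and lower ones in recombined Hex (7.12) and in all HexERTVP2 groups (6.38 to 6.94). Wild-type arrays read 7.56, 7.44, 7.38 and 7.59, and unrecombined Hex arrays read 7.48, 8.44, 7.57 and 7.72, the highest being array 2. Recombined Hex arrays read 7.19, 7.13, 7.09 and 7.08, below every array of both other groups. Bnip3 fell with Hex recombination by 0.68 on the log2 scale (SE 0.14, 1.60-fold lower, adjusted p = 0.00326), and the difference was −0.47 without array 2 (adjusted p = 0.00920). In this comparison 3 of 10 member probe sets were called, 2 higher (Ak4 99959_at and Egln1) and 1 lower (Bnip3), against 3.37% of all probe sets (2.59% higher and 0.781% lower). On 39 arrays the balance turned, with 1 higher (Ak4 99959_at) and 3 lower (Bnip3, Hk2 94375_at and Pgk1) of 10, against 6.26% of all (2.35% higher and 3.91% lower). The Bnip3 call ended when only the 2 Hex groups were fitted (adjusted p = 0.701). Against wild type, recombined Hex differed by −0.37 (SE 0.14, adjusted p = 0.497, and 0.0727 on 39 arrays), with no overlap between the groups.

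In every HexERTVP2 group Bnip3 lay below all wild-type arrays. Unrecombined clone 1 read 7.07, 6.91, 6.84, 7.01 and 6.87 without 4-OHT, and unrecombined clone 2 read 6.65, 6.59 and 5.91. Recombined clone 1 read 6.76, 6.43, 6.52 and 6.84, and recombined clone 2 read 6.70, 6.64 and 6.77. The difference between unrecombined clone 2 and wild type was −1.11 (SE 0.15, 2.16-fold lower, adjusted p = 1.40e-05). For unrecombined clone 1 it was −0.55 (SE 0.13, adjusted p = 0.0647), which passed on 39 arrays (0.00170), without array 1 of unrecombined Hex (0.0467) and without array 3 of unrecombined clone 2 (0.0162). Recombined clones without 4-OHT stood at −0.85 (clone 1, adjusted p = 4.96e-04, 0.668% of all called) and −0.79 (clone 2, adjusted p = 0.0135, 0.0966%) from wild type. Recombination of HexERTVP2 left Bnip3 at 0.01 without 4-OHT (95% interval −0.20 to 0.22, adjusted p = 0.992), with −0.30 in clone 1 and 0.32 in clone 2, and those 2 values differed by 0.62 (adjusted p = 0.377, and 0.0369 without array 2 of unrecombined Hex). The clone 2 value rested on array 3 of unrecombined clone 2 (5.91). Without that array it was 0.08, the average of the clones was −0.11 and the clones' difference was 0.38 (adjusted p = 0.883, and 0.169 with array 2 of unrecombined Hex left out too). The difference between Hex and HexERTVP2 in the effect of recombination was itself −0.69 (SE 0.17, adjusted p = 0.0338, and −0.48 with 0.0292 on 39 arrays), with 1.94% of all probe sets called (8.16% on 39 arrays). It did not pass without array 3 of unrecombined clone 2 (−0.57, adjusted p = 0.0622) or once the β-actin ratio was a covariate (−0.51, adjusted p = 0.0919), and the ratio itself differed by −0.78 in this comparison. That interaction for Ak4 99959_at was 0.08 (95% interval −0.24 to 0.40).

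Egln1, the oxygen sensor of the set, had its highest mean in recombined Hex cells. Those arrays read 7.95, 8.09, 8.11 and 8.11, unrecombined Hex arrays read 7.84, 7.43, 7.88 and 7.90, and wild-type arrays read 8.02, 7.88, 7.95 and 7.87. The recombined arrays lay above the unrecombined ones and overlapped wild type. Egln1 rose by 0.30 with Hex recombination (SE 0.08, 1.24-fold, adjusted p = 0.0193). The call was lost without array 2 of unrecombined Hex (0.19, adjusted p = 0.0536), without array 2 or array 4 of recombined Hex (adjusted p = 0.0588 and 0.0582), when arrays were centred on their medians (0.0562) and when only the 2 Hex groups were fitted (0.978). For HexERTVP2 recombination without 4-OHT the difference was 0.14 (SE 0.06, adjusted p = 0.336), and for unrecombined clone 2 against wild type it was −0.25 (SE 0.08, adjusted p = 0.0569, and 0.00458 on 39 arrays).

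Hk2 and Pgk1, a first and a later enzyme of glycolysis, moved together over the groups. On Hk2 probe set 94375_at the unrecombined Hex arrays read 9.77, 8.53, 9.78 and 9.70, the recombined ones 9.20, 9.23, 8.99 and 9.28 and wild type 9.32, 9.55, 9.54 and 9.63. Pgk1 read 12.14, 10.56, 12.18 and 12.18 in unrecombined Hex, 11.31, 11.67, 11.20 and 11.78 in recombined Hex and 11.78, 11.71, 11.84 and 11.90 in wild type. In both genes array 2 was the lowest of all 40 arrays, while the other 3 unrecombined arrays lay above every recombined array. With all arrays the Hex recombination difference was −0.27 in Hk2 (SE 0.15, adjusted p = 0.398) and −0.28 in Pgk1 (SE 0.23, adjusted p = 0.566), and neither passed. Without array 2 both fell, Hk2 by 0.57 (SE 0.09, 1.49-fold lower, adjusted p = 4.60e-05) and Pgk1 by 0.68 (SE 0.17, 1.60-fold lower, adjusted p = 0.00964). The correlation of the 2 genes' group means was 0.97 on 40 arrays and 0.99 on 39, and that of Bnip3 with Pgk1 and Hk2 was 0.83 and 0.84 on 40 arrays; these are descriptions over 11 groups measured on the same arrays. With Ak4 99959_at, Bnip3 had a correlation of 0.09.

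Against wild type, recombined Hex cells had 0 of 10 member probe sets called in limma, 2 with an unadjusted p under 0.05, and 0.266% of all probe sets were called. On 39 arrays 1 was called, Hk2 94375_at at −0.33 (SE 0.08, adjusted p = 0.0295), against 1.37%. Unrecombined clone 1 likewise had 0 of 10 called against wild type (2 with an unadjusted p under 0.05; 0.298% of all), and on 39 arrays 1 (Bnip3) against 1.14%. Unrecombined clone 2 had 3 of 10 called, Bnip3 and Ak4 99959_at lower and Hk2 161313_at higher, against 6.79% of all. On 39 arrays 7 of 10 were called, with Pgk1 (−0.48, adjusted p = 0.0353) and Hk2 94375_at (−0.42, adjusted p = 0.00108) among them, but so were 25.4% of all probe sets. Clone 2 arrays of Hk2 94375_at read 9.01, 9.20 and 9.06, all under the wild-type range.

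The second Hk2 probe set, 161313_at, did not follow the first. It had the dimmest mean of the 10, at percentile 5.18 of all probe sets, and was not shown to exceed background. In unrecombined clone 2 it read 3.93, 4.02 and 4.64, above wild type at 3.58, 3.70, 3.57 and 3.69. It rose there by 0.56 (SE 0.15, 1.48-fold, adjusted p = 0.0244), and the call was lost without array 3 of unrecombined clone 2 (0.34, adjusted p = 0.262), without wild-type arrays 1, 3 or 4 (0.0574, 0.0514 and 0.0533), under quantile normalisation (0.0669) and when only the groups compared were fitted (0.0608). The correlation of the 2 Hk2 probe sets over group means was −0.35.

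**Figure D2:**
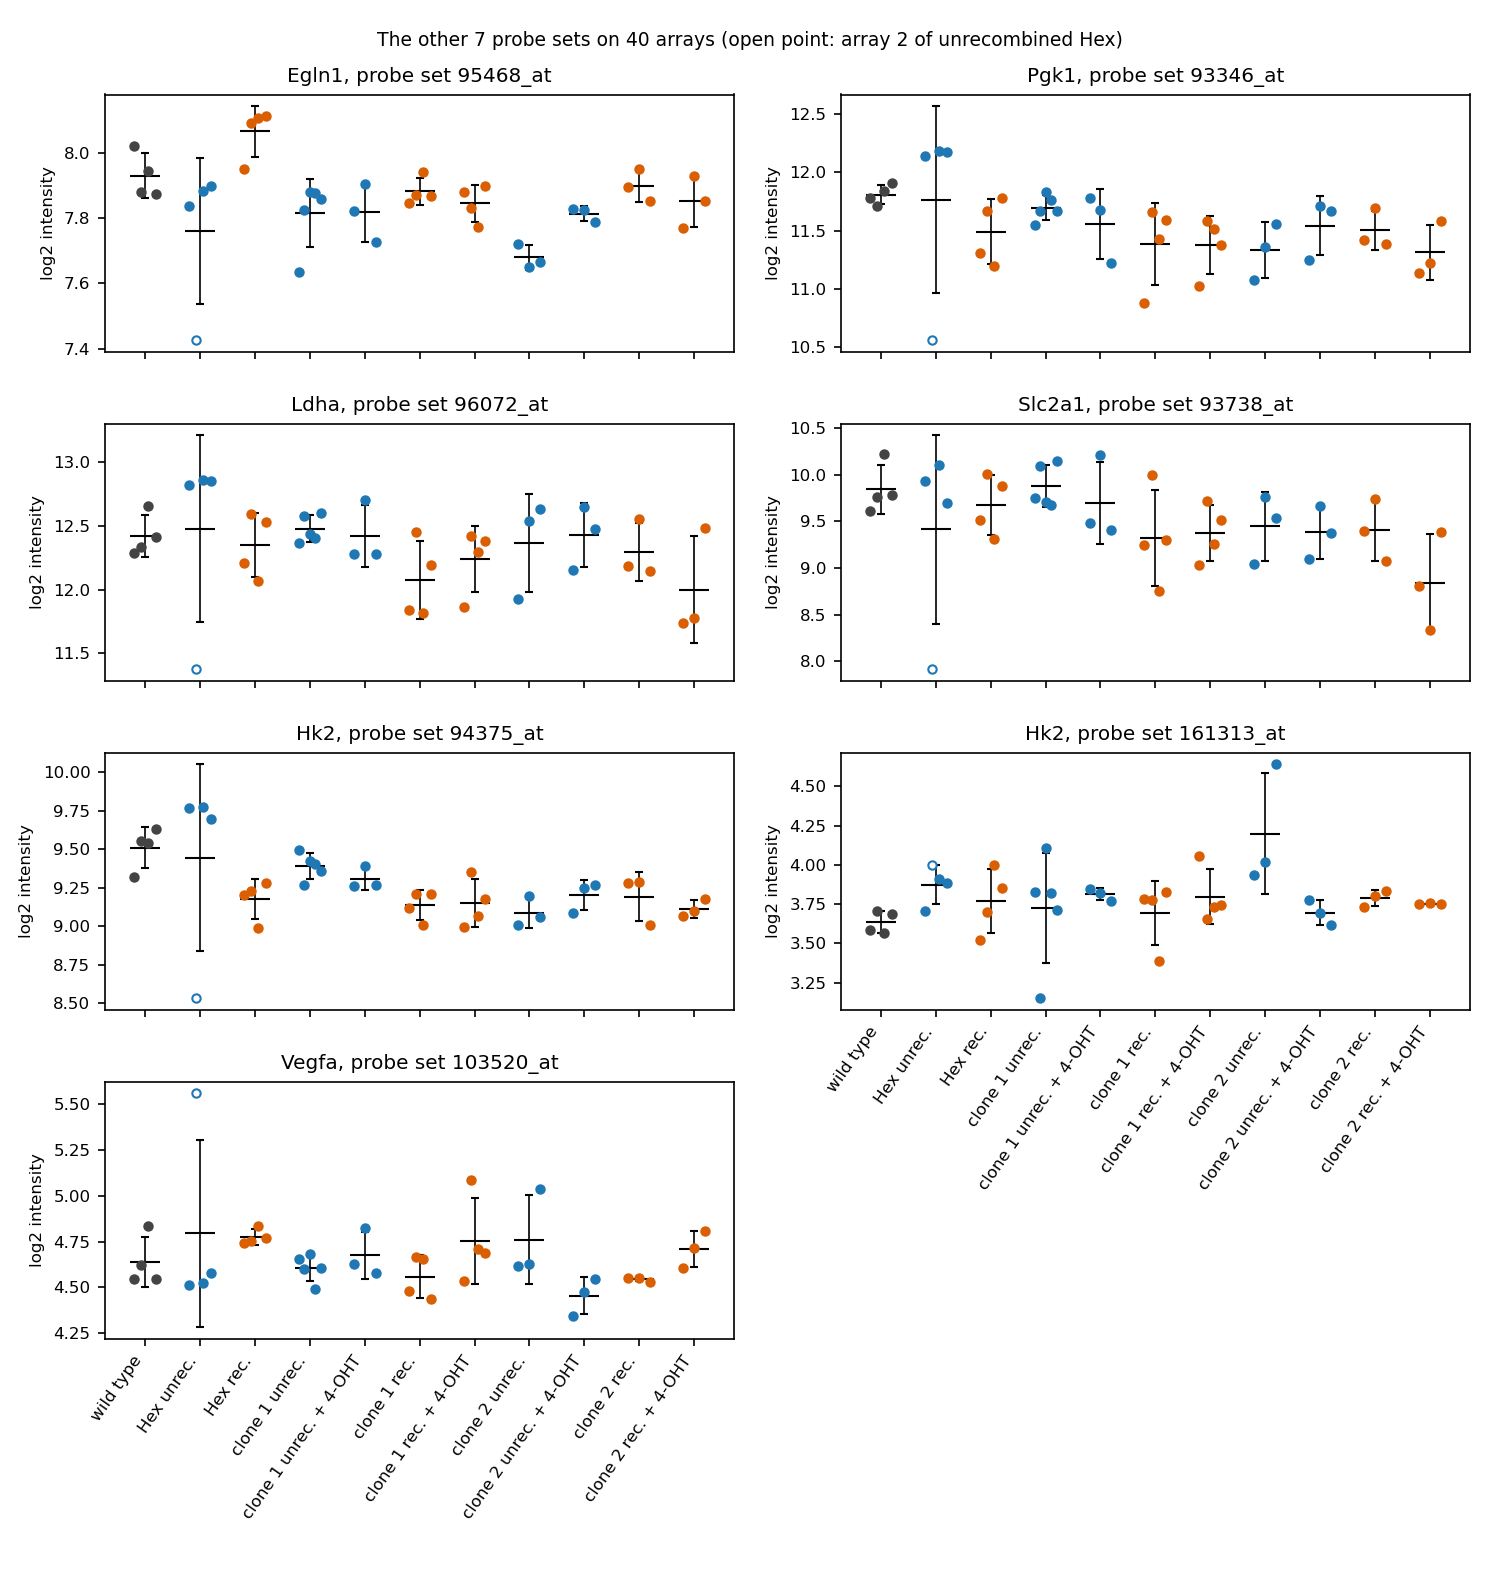
Log2 intensity (vertical axes) of the 7 member probe sets other than those of Ak4 and Bnip3, on each of 40 arrays in 11 groups (horizontal axes), with mean ± SD bars; grey marks wild type, blue unrecombined and orange recombined cells. The open point, array 2 of unrecombined Hex, is the lowest of all arrays in Egln1 (7.43), Pgk1 (10.56), Ldha (11.38), Slc2a1 (7.92) and Hk2 94375_at (8.53).

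Ldha and Slc2a1 showed no called difference in any of the 12 comparisons on 40 arrays or on 39. Ldha, the lactate-producing enzyme, read 12.82, 11.38, 12.86 and 12.85 in unrecombined Hex, 12.21, 12.60, 12.07 and 12.53 in recombined Hex and 12.28, 12.34, 12.66 and 12.42 in wild type. The Hex recombination difference was −0.13 (95% interval −0.60 to 0.34), and −0.49 on 39 arrays (SE 0.18, adjusted p = 0.110). Slc2a1, the glucose transporter, read 9.93, 7.92, 10.10 and 9.70 in unrecombined Hex, 9.51, 10.01, 9.31 and 9.88 in recombined Hex and 9.61, 9.77, 10.22 and 9.79 in wild type. Its Hex recombination difference was 0.27 (95% interval −0.38 to 0.91), and on 39 arrays the sign turned, at −0.23 (SE 0.25, adjusted p = 0.677).

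Within groups, Slc2a1 and Ldha followed the β-actin ratio. The fitted slope of Slc2a1 was −0.89 log2 units per unit of the ratio (SE 0.09, adjusted p = 1.48e-09) on 40 arrays and −0.74 (SE 0.06, adjusted p = 2.69e-12) on 39. Ldha had slopes of −0.59 and −0.47, Pgk1 of −0.39 and −0.22 and Hk2 94375_at of −0.25 and −0.12, all past the threshold. Bnip3 had a positive slope, 0.23 and 0.14 (adjusted p = 0.00548 and 0.0348), and Ak4 99959_at had −0.04 and 0.06, neither of which passed. With Ak4 99521_at, 6 of 10 member probe sets had a called slope, against 58.8% of all probe sets on 40 arrays and 58.7% on 39, so the share is near the background. The ratio differed between the groups compared: by −0.34 for Hex recombination (−0.09 without array 2), 0.44 for HexERTVP2 recombination without 4-OHT, −0.18 for unrecombined clone 1 and −0.33 for unrecombined clone 2 against wild type. With the ratio in the model the calls of Ak4 99959_at kept their side of the threshold, at 0.81 for Hex recombination and 0.76 for HexERTVP2 recombination, as did Bnip3 at −0.60 for Hex recombination and −1.03 for unrecombined clone 2 against wild type. The fit with the ratio was run for every comparison, and the counts of called member probe sets that moved under it are given below. What part the ratio has in those differences was not tested. In the same fit Slc2a1 differed between unrecombined clone 2 and wild type by −0.69 (adjusted p = 0.00861).

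**Figure D3:**
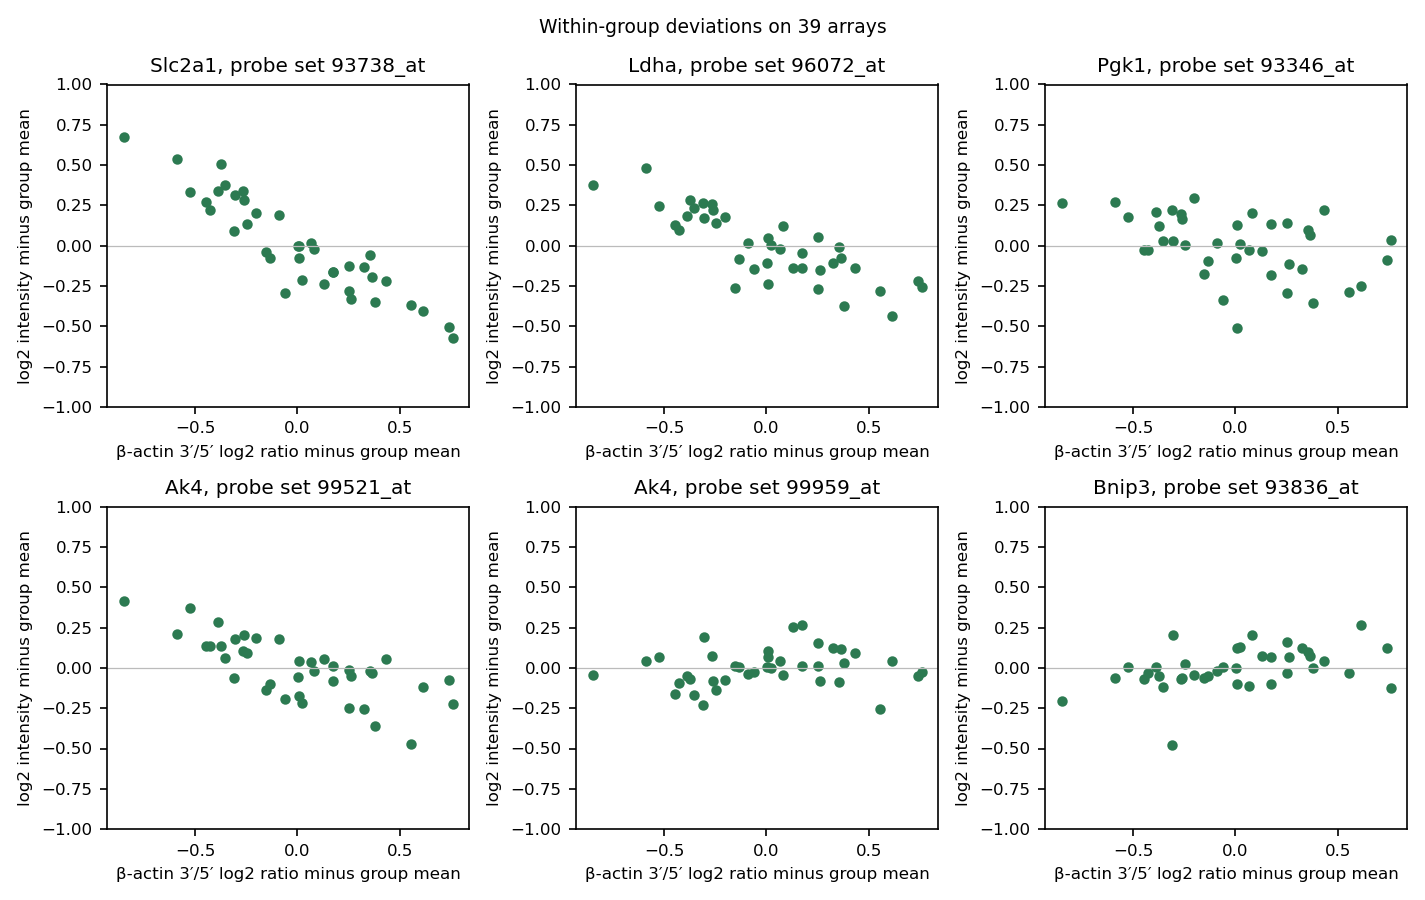
Deviation of each of 39 arrays from its group mean in log2 intensity (vertical axes) against its deviation in the β-actin 3′/5′ log2 ratio (horizontal axes), for 6 member probe sets. Slc2a1 and Ldha decline with the ratio (slopes −0.74 and −0.47), and Ak4 99959_at does not (0.06).

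Vegfa, the vascular growth factor, was dim, at percentile 14.9 of all probe-set means, and was not shown to exceed background. Recombined Hex arrays read 4.74, 4.75, 4.84 and 4.77, unrecombined Hex arrays 4.51, 5.56, 4.52 and 4.58 and wild type 4.55, 4.62, 4.83 and 4.55. Array 2 was the highest of all 40 arrays. The Hex recombination difference was −0.02 (SE 0.14, adjusted p = 0.960), and 0.24 on 39 arrays (SE 0.10, adjusted p = 0.181). No comparison called Vegfa on either set of arrays.

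No member probe set responded to 4-OHT past the threshold. In recombined HexERTVP2 cells 0 of 10 were called in limma, 0 had an unadjusted p under 0.05 (1 on 39 arrays), and 0.0322% of all probe sets were called (0.145% on 39 arrays). The differences ran from −0.26 (Slc2a1, 95% interval −0.75 to 0.24) to 0.18 (Vegfa, 95% interval −0.05 to 0.41). For Ak4 99959_at the recombined clone 1 arrays with 4-OHT read 8.47, 8.39, 8.60 and 8.30 and those of clone 2 read 7.98, 7.92 and 8.01, a mean difference from untreated cells of −0.11 (95% interval −0.31 to 0.08). Bnip3 read 6.58, 6.58, 6.54 and 6.60 in recombined clone 1 with 4-OHT and 6.61, 6.80 and 6.61 in clone 2, a difference of −0.05 (95% interval −0.26 to 0.17). In unrecombined cells 0 of 10 were called as well (0 with an unadjusted p under 0.05; 0% of all probe sets called), with differences from −0.21 to 0.11. The interaction of 4-OHT with recombination was also called in 0 of 10 (0 with an unadjusted p under 0.05, 2 on 39 arrays; 0.0161% of all, and 0.0644% on 39 arrays), with values from −0.23 (Ak4 99959_at) to 0.30 (Vegfa). Between the clones the response differed in 0 of 10 (0 with an unadjusted p under 0.05; 0% of all), with the largest value in Slc2a1 (−0.62, 95% interval −1.60 to 0.37). The β-actin ratio differed by 0.95 in that comparison, being −0.62 with 4-OHT in recombined clone 1 and 0.32 in recombined clone 2. With the ratio as a covariate in limma the Slc2a1 value was 0.23 (adjusted p = 0.972).

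**Figure D4:**
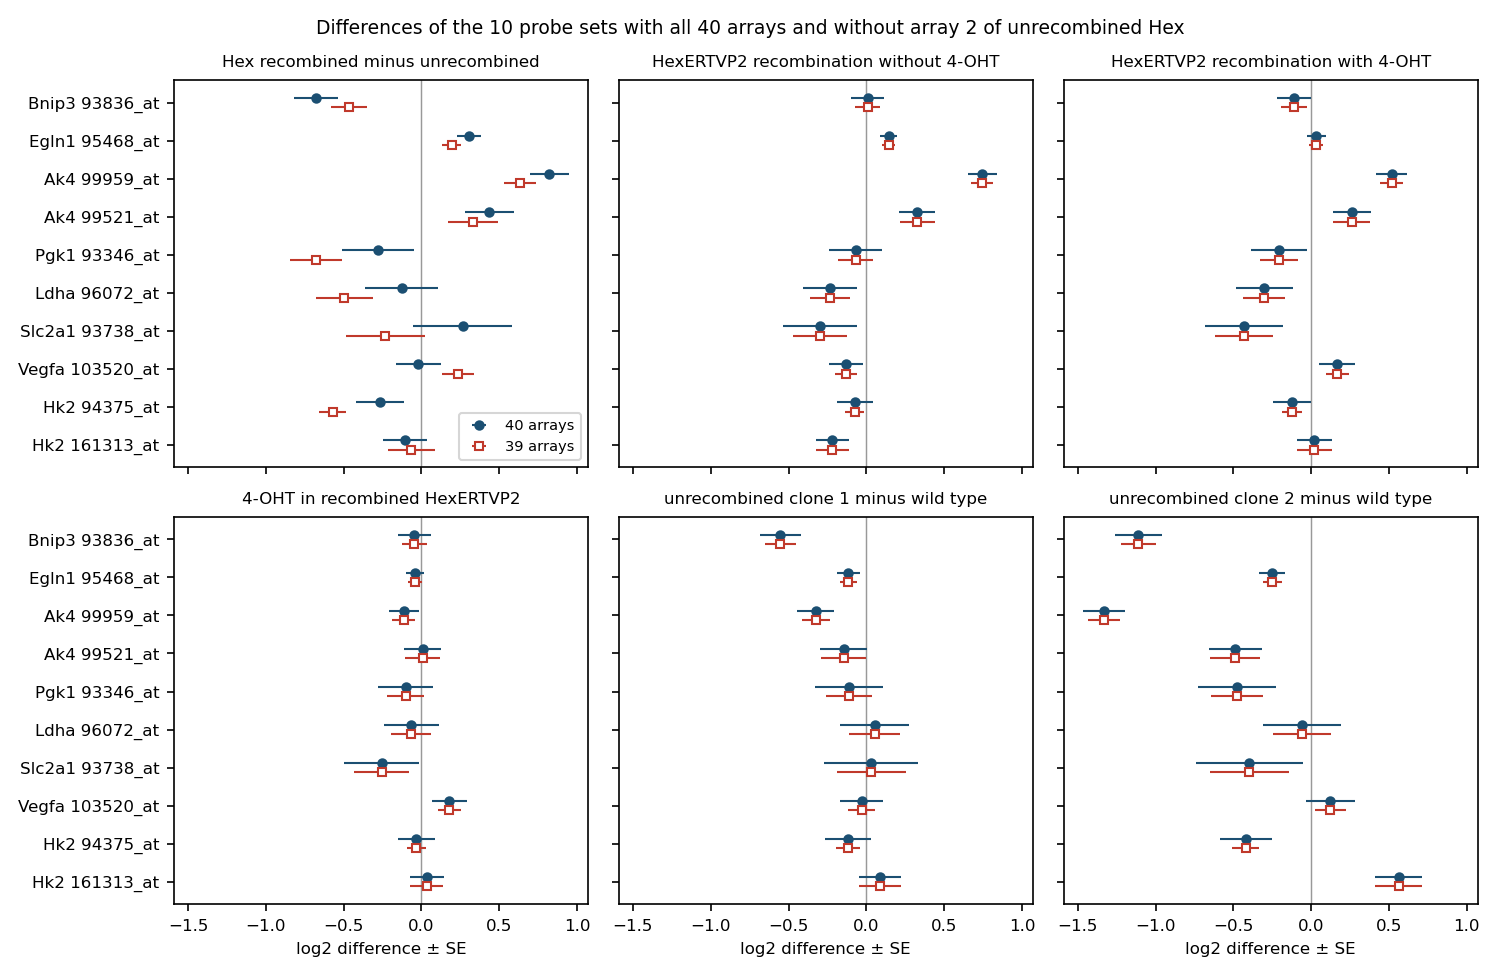
Log2 difference ± SE (horizontal axes) of the 10 member probe sets (vertical axes) in 6 comparisons, with all 40 arrays (filled) and without array 2 of unrecombined Hex (open). Ak4 99959_at is above 0 in the 3 recombination comparisons (0.82, 0.75 and 0.52), Bnip3 is below 0 in Hex recombination (−0.68) and in both unrecombined clones against wild type, and no value for 4-OHT lies beyond −0.26 or 0.18.

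Other genes of the pathway were read from lists of non-members, with the probe set of highest mean standing for each gene. Of 23 measured hypoxia-induced genes 2 rose and 0 fell with Hex recombination: Igfbp3, a binding protein of insulin-like growth factors, by 0.73 (SE 0.16, adjusted p = 0.00451) and Bhlhe40, a transcriptional repressor, by 0.50 (SE 0.11, adjusted p = 0.00802). Over all probe sets 2.59% were called higher and 0.781% lower there. The list's median was 0.13, against 0.01 over all probe sets. On 39 arrays these medians were 0.07 and 0.04. There 3 of the list rose and 0 fell, with 2.35% of all probe sets called higher and 3.91% lower. In unrecombined Hex against wild type 3 fell and 0 rose, Igfbp3 (−0.90), Slc2a3, a second glucose transporter (−0.89), and Ddit4, an inhibitor of mTOR signalling (−0.61), and on 39 arrays only Igfbp3 did (−0.71). The share of all probe sets called there was 4.82% (3.63% on 39 arrays). With HexERTVP2 recombination without 4-OHT 1 rose, the histone demethylase Kdm3a (0.46, SE 0.11, adjusted p = 0.0390), and 0 fell, against 0.467% of all probe sets called. Against wild type, unrecombined clone 2 had 1 higher (P4hb, a protein disulfide isomerase, 0.34) and 2 lower, Igfbp3 (−0.61) and Pdk1, a kinase that inhibits pyruvate dehydrogenase (−0.87, SE 0.20, adjusted p = 0.00859). Of all probe sets 6.79% were called in that comparison. On 39 arrays the counts were 2 higher and 7 lower of 23, where 25.4% of all probe sets were called. Bhlhe40 was lower in clone 2 than in clone 1 (−0.45, adjusted p = 1.05e-05), the 1 of 23 called, against 1.22% of all probe sets.

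In the glycolysis list (19 measured genes) 2 genes were called on 40 arrays, both lower than in wild type. Pfkp, a phosphofructokinase, and Ldhb, the second lactate dehydrogenase subunit, fell against wild type in unrecombined Hex (−1.21, SE 0.28, adjusted p = 0.00649, and −1.03, SE 0.19, adjusted p = 4.96e-04) and in unrecombined clone 2 (−1.55, SE 0.30, adjusted p = 0.00136, and −1.31, SE 0.20, adjusted p = 9.23e-05), and 0 of 19 rose in either. On 39 arrays the unrecombined Hex differences were −0.76 in Pfkp (adjusted p = 0.0342) and −0.97 in Ldhb (adjusted p = 0.00200). Both comparisons, of unrecombined Hex and of unrecombined clone 2, share the wild-type arrays. Over all probe sets 4.82% and 6.79% were called in them. Pfkp averaged 8.42 ± 0.12 (SD, n = 4) in wild type, 7.21 ± 0.91 (n = 4) in unrecombined Hex, 8.03 ± 0.31 (n = 4) in recombined Hex, 6.88 ± 0.33 (n = 3) in unrecombined clone 2 and 7.75 ± 0.15 (n = 3) in recombined clone 2. In clone 1 it averaged 7.87 ± 0.10 (n = 5) before and 7.63 ± 0.48 (n = 4) after recombination. Ldhb averaged 8.16 ± 0.23 (n = 4) in wild type and less in every other group, down to 6.86 ± 0.31 (n = 3) in unrecombined clone 2. It was also lower than wild type in recombined clone 1 (−0.79, SE 0.19, adjusted p = 0.0330), where Pfkp passed on 39 arrays only (−0.79, adjusted p = 0.0261). The differences of unrecombined clone 1 from wild type were −0.66 in Ldhb (adjusted p = 0.142) and −0.55 in Pfkp (0.224 on 39 arrays), and that of recombined Hex was −0.59 in Ldhb (0.330). Unrecombined clone 2 differed from unrecombined clone 1 by −0.65 in Ldhb (adjusted p = 0.0653, and 0.0235 on 39 arrays) and −0.99 in Pfkp (0.0565, and 0.00175 on 39 arrays). No glycolysis gene passed for Hex recombination (4 of 19 with an unadjusted p under 0.05) or for HexERTVP2 recombination without 4-OHT (2 of 19). The shares of all probe sets called there were 3.37% and 0.467%.

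Among 14 measured HIF pathway regulators limma called 0 in each of the 12 comparisons on 40 arrays, with 0 to 5 of them at an unadjusted p under 0.05. Between 0% and 6.79% of all probe sets were called in those comparisons. On 39 arrays 1 to 4 passed in 5 of the comparisons. Cited2 was lower in the interaction of 4-OHT with recombination (−0.51, adjusted p = 0.0318, 0.0644% of all called). It was also lower with HexERTVP2 recombination with 4-OHT (−0.40, adjusted p = 0.00262, 0.523%). In unrecombined clone 1 it was higher than in wild type (0.35, adjusted p = 0.0424, 1.14%). Without 4-OHT, Siah1a rose with HexERTVP2 recombination (0.27, adjusted p = 0.0188) and Arnt2 fell (−0.18, 0.0446), against 3.38%. On 39 arrays unrecombined clone 2 had 2 higher and 2 lower of 14 than wild type, a share near the 25.4% called over all probe sets. They were Arnt2 (0.31) and Vhl (0.20), higher, and Crebbp (−0.31) and Hif1a, the oxygen-regulated HIF subunit (−0.32), lower. Of 7 genes for the entry of pyruvate into mitochondria and its use there 0 were called on 40 arrays in any of the 12 comparisons (0 to 2 at an unadjusted p under 0.05). On 39 arrays Pdhb was lower with Hex recombination (−0.51, adjusted p = 0.00430, 6.26% of all probe sets called). Pdha1 (−0.42, adjusted p = 0.0495) and Pdk3 (−0.48, 0.0157) were then lower in unrecombined clone 2 than in wild type (25.4% called). Among 15 genes of the members' own families, Vegfc, a lymphatic relative of Vegfa, was higher in unrecombined Hex than in wild type (0.65, SE 0.15, adjusted p = 0.00721), lower with Hex recombination (−0.52, SE 0.15, adjusted p = 0.0458) and higher in clone 2 than in clone 1 (0.32, SE 0.08, adjusted p = 0.0325), and no other of the 15 was called in those comparisons. The shares of all probe sets called in them were 4.82%, 3.37% and 1.22%. With HexERTVP2 recombination without 4-OHT Vegfc went the other way than with Hex recombination. It was higher by 0.46 (SE 0.11), which passed on 39 arrays only (adjusted p = 0.0508, and 0.00624 on 39 arrays). There 0.467% of all probe sets were called (3.38% on 39 arrays).

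The genes whose group means were most like those of Ak4 99959_at, by Pearson correlation over 11 groups among 8250 genes, were Wfs1 (0.96), Nipsnap1 (0.95) and Trdmt1 (0.94). For Bnip3 they were Ppp1r15b (0.91), Frmd5 (0.90) and Trak1 (0.89), and on 39 arrays Rnf19a (0.95), Pdk1 (0.95) and Sh3d19 (0.94). Wfs1 and Nipsnap1 stayed among the 3 genes most like Ak4 on 39 arrays, and none of the 3 for Bnip3 did. The correlation of Trdmt1 with Ak4 was 0.78 on 39 arrays, and that of Rnf19a with Bnip3 was 0.58 on 40. The group means of Wfs1 spanned only 0.21 log2 units, against 1.42 in Ak4 99959_at. All these genes were picked as the highest of 8250 over 11 groups, so the size of their correlations shows no link.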

How the data were processed

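Per the submitters' processing notes the authors used RMA, with no version or settings named; which arrays were normalised together, and the genome build, are not given in the sources used here. The deposited values are linear intensities, 1 per probe set and array (array medians 106 to 112), and were converted to log2. Of 12488 probe sets, 66 controls were left out and 12422 were tested with no intensity filter. Groups followed the titles; 4 arrays with contradictory titles were left out, and in 1 array of recombined clone 2 with 4-OHT a stray minus sign in the code was passed over. One limma model (version 3.58.1 in R 4.3.3; lmFit and eBayes) held all 11 group means, with 29 residual degrees of freedom, with two-sided tests, Benjamini-Hochberg adjustment over all probe sets and a threshold of 0.05. Errors of differences are SEs and those of means SDs. The number of arrays limits precision.

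The members, lists and naming rule were chosen with earlier results of these data known. Named were all member probe sets, up to 4 called genes per list and comparison, and the 3 genes most like each member whose probe set with the highest mean passed the F test on 40 arrays. Neighbouring genes, recombined clones against wild type, the test of Hex against HexERTVP2 recombination, the β-actin slopes, Bnip3 without array 3 of unrecombined clone 2, and Pfkp and Ldhb line by line were added after the data were seen. Alternatives were median centring, quantile normalisation, a filter on dim probe sets, trended robust moderation, array weights, fits of only the groups compared, a β-actin covariate, a replicate block, a threshold of 0.01 and leaving out each array. The procedure was tested on simulated data. Promoter windows were matched by symbol (8 of 8). Figures used matplotlib 3.10.9.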

Additional observations from a re-analysis of the deposited data

Results flagged for a closer look

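In groups of 4 or 5 arrays, 10 of 60 combinations of group and member probe set had 1 array far from the rest of its group by Dixon's criterion, which chance meets in about 1 of 20. Array 2 of unrecombined Hex accounted for 6 of them: Egln1 (7.43, the others 7.84 to 7.90), Ak4 99959_at (6.88, the others 7.59 to 7.68), Pgk1 (10.56, the others 12.14 to 12.18), Ldha (11.38, the others 12.82 to 12.86), Vegfa (5.56, the others 4.51 to 4.58) and Hk2 94375_at (8.53, the others 9.70 to 9.78). Its β-actin ratio was 2.24. The other 4 were Egln1 on array 1 of recombined Hex (7.95, the others 8.09 to 8.11), Egln1 on array 1 of unrecombined clone 1 without 4-OHT (7.64, the others 7.82 to 7.88), Ak4 99959_at on array 1 of recombined clone 1 without 4-OHT (8.60, the others 8.45 to 8.47) and Hk2 161313_at on array 3 of that group (3.39, the others 3.78 to 3.82).

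The effect of recombination on Bnip3 differed between Hex and HexERTVP2 by −0.69 (SE 0.17, adjusted p = 0.0338 in limma): the recombined Hex arrays lay below the unrecombined ones, and the HexERTVP2 difference was 0.01, the average of −0.30 in clone 1 and 0.32 in clone 2. The difference did not pass once the model held the β-actin ratio (−0.51, adjusted p = 0.0919) or without array 3 of unrecombined clone 2 (−0.57, adjusted p = 0.0622).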

How the results depend on the processing

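No member value called on 40 or on 39 arrays changed sign under the alternatives run. Of all 120 member values in the 12 comparisons, 40 took the other sign under at least 1 alternative, 6 of them on 39 arrays, and 2 were called with it: under array weights, Hk2 94375_at went from −0.07 to 0.25 (adjusted p = 0.00572) and Pgk1 from −0.04 to 0.37 (0.0191) in unrecombined Hex against wild type. Counts of called member probe sets moved as follows. For Hex recombination the count was 3; it was 7 with array weights, 0 with only the groups compared and 6 with the β-actin covariate on 39 arrays. Against wild type, recombined Hex went from 0 to 2 with array weights and 2 with the covariate on 39 arrays, and unrecombined Hex from 1 to 2 with dim probe sets removed, 5 with array weights, 0 with only the groups compared, 2 with the covariate and 3 with it on 39 arrays. For 4-OHT in recombined cells the count was 1 with the covariate on 39 arrays. HexERTVP2 recombination went from 1 to 2 without 4-OHT under the covariate, with 40 or 39 arrays, and from 1 to 2 with 4-OHT under array weights and under the covariate on 39 arrays. Clone 2 against clone 1 went from 1 to 3 (array weights), 2 (only the groups compared), 2 (covariate) and 4 (covariate, 39 arrays). Unrecombined clone 1 against wild type went from 0 to 1 when arrays were centred, 2 with array weights and 1 with only the groups compared, the covariate, or the covariate on 39 arrays. Unrecombined clone 2 against wild type went from 3 to 5 with array weights, 5 with only the groups compared, 8 with the covariate and 8 with it on 39 arrays. Variation over the 11 groups went from 3 to 5 under quantile normalisation, 8 with array weights, 5 with the covariate and 8 with it on 39 arrays. The cause was not tested, and the shares of all probe sets called under each alternative are not set beside these counts. Such shares move too: on 39 arrays they rose from 3.37% to 6.26% for Hex recombination and from 5.17% to 12.9% over the 11 groups. Against wild type the share rose from 6.79% to 25.4% for unrecombined clone 2 and fell from 4.82% to 3.63% for unrecombined Hex. A higher count is therefore not read as a stronger effect on the members.

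Leaving out single arrays gave 2 to 4 for Hex recombination, 0 to 1 for recombined Hex and 1 to 2 for unrecombined Hex against wild type, 0 to 0 for 4-OHT in recombined and in unrecombined cells, the interaction and the clones' 4-OHT responses, 1 to 1 for HexERTVP2 recombination without and with 4-OHT, 1 to 2 between the clones, 0 to 1 and 2 to 7 for unrecombined clones 1 and 2 against wild type, and 2 to 6 over the 11 groups. The count for unrecombined Hex rose to 2 without its own array 1 or 3, array 3 of recombined Hex or array 2 of recombined clone 1 without 4-OHT.

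Over all probe sets, 76.8% of Hex recombination calls were higher, 57.3% with arrays centred and 69.0% after quantile normalisation, but 45.3% with array weights and 37.5% on 39 arrays, where most were lower; for unrecombined clone 2 against wild type the shares were 48.4%, 32.4%, 36.0%, 41.8% and 54.3%. Same-numbered arrays of different groups deviated together weakly (173 pairs, mean correlation 0.08, lowest −0.70), so the numbers are not shown to pair arrays; with the replicate block, Hex recombination still had 3 calls, Ak4 99959_at was at 0.75 for HexERTVP2 recombination without 4-OHT, and no call of a member changed.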

Other observations

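Leprot, the measured gene next to Ak4 on one side, which encodes a membrane protein of endosomes, fell against wild type in the same 2 unrecombined lines as Ak4, by 0.57 on the log2 scale in unrecombined Hex (SE 0.12, adjusted p = 0.00305 in limma) and by 0.63 in unrecombined clone 2 (SE 0.13, adjusted p = 0.00304); both comparisons share the wild-type arrays. Leprot averaged 7.77 in wild type (7.72 to 7.82) and less in every other group, at 7.14 to 7.60. Recombined Hex arrays (7.27 to 7.62) and unrecombined clone 1 arrays without 4-OHT (7.34 to 7.55) all lay below the wild-type range. Their differences did not pass (−0.33, adjusted p = 0.450, and −0.32, adjusted p = 0.551). The Leprot differences with recombination were 0.24 for Hex (adjusted p = 0.319) and 0.23 for HexERTVP2 without 4-OHT (adjusted p = 0.314), and neither passed. The other neighbours read, Ror1, Cachd1, Jak1, Lepr and Pde4b near Ak4 and Mki67, Mgmt, Ebf3, Dpysl4 and Inpp5a near Bnip3, were not called on 40 arrays in any of the 12 comparisons. Nkx6-2 near Bnip3 was lower in clone 2 than in clone 1 (−0.25, adjusted p = 0.0315). On 39 arrays Mki67 passed too, lower with Hex recombination (−0.54, adjusted p = 0.0150, 6.26% of all probe sets called). It was also lower in unrecombined clone 2 than in wild type (−0.56, adjusted p = 0.00563, 25.4% called). Against wild type, Ror1 then passed in unrecombined clone 2 (0.34, adjusted p = 0.0304) and Nkx6-2 in unrecombined clone 1 (0.44, adjusted p = 0.0297, 1.14% called). The neighbours were chosen after the data were seen.

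On the 4 arrays whose labels contradict themselves, Ak4 99959_at read 8.25, 7.25, 8.07 and 8.07 and Bnip3 read 7.10, 6.55, 6.58 and 6.79.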
